A study of Xenopus laevis with 9 samples.

Results

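Animal pole explants of Xenopus laevis, the African clawed frog, were compared at stage 9 between embryos treated with soxb1 morpholinos (St9 soxb1 morphant) and wild-type embryos (St9 wild type). The comparison held 6 of the 9 libraries of the series, 3 in each group, chosen by their titles and treatment labels. Of 51061 listed genes, 21659 passed a filter on low counts and were tested, and it is these genes that are described. Every library was labelled wild type by genotype and came from blastula animal pole tissue, and the wild-type explants carried no treatment. The morpholinos, antisense oligonucleotides that block translation, were directed by the study's methods at the sox2 and sox3 transcripts and were injected at early cleavage stages. No library of a control morpholino was analysed here, so the effect of losing SoxB1 translation and that of an injected morpholino cannot be told apart.

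SoxB1 proteins (Sox1, Sox2 and Sox3) bind DNA through an HMG box and act mostly as transcriptional activators. They are known for keeping blastula cells uncommitted and, later, for marking neural progenitors. Cells of the animal pole form ectoderm, which gives rise to epidermis, the nervous system and the neural crest, but explanted at this stage they still respond to signals for other germ layers. Frog embryos at stage 9 have recently switched on their own transcription and still hold much maternal RNA, so a level in these libraries can be of either origin.

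The libraries held between 25796466 and 31671342 counts, with at least 1 count for between 29206 and 30969 genes. Levels are given as CPM, counts divided by the library total after TMM scaling and multiplied by 1000000, without a correction for gene length, and are listed for replicates 1, 2 and 3 in that order. A floor of 3 counts corresponded to between 0.0947 and 0.116 CPM, and floors cover counting error only. The study's methods call the replicates biological, but neither they nor the labels say whether a number marks a clutch, a day or a preparation. Libraries that share a number deviated together across the groups, and the number was therefore a block in the fit. The p-values thus measure how far the difference between morphant and wild type varied from pair to pair. They do not measure the full spread between samples, and the spread that is left may be technical in part. In bulk RNA, fewer cells of a type and less RNA per cell cannot be told apart. The 27 listed markers of animal pole tissue, of which 26 were tested, summed to between 2297 and 2979 CPM in wild-type libraries and between 2819 and 3215 CPM in morphant libraries. The 53 listed vegetal and endoderm markers, of which 24 were tested, summed to at most 526 CPM. Of the animal pole markers 4 were called higher and 7 lower, and the targeted transcripts sox3.L and sox3.S were among the 4. The animal pole sum therefore includes the rise of the targeted transcripts themselves, given next.

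The targeted transcripts were higher in morphants. sox3.L stood at 190, 172 and 269 CPM in wild type and at 321, 377 and 487 CPM in morphants, with no overlap between the groups (log2 fold change 0.92, SE 0.07, adjusted p = 1.67e-06). sox3.S stood at 448, 371 and 660 CPM against 682, 614 and 904 CPM and rose within every pair although the groups overlapped (log2 fold change 0.60, adjusted p = 3.01e-05). Both rows named sox2.L rose, gene41682 by 1.09 and gene45195 by 1.16 on the log2 scale, and without the pair of replicate 3 the second was no longer called (adjusted p = 0.182). sox1.L and sox1.S, not targeted by the morpholinos, had log2 fold changes of 0.77 and 0.61 that did not pass the test (adjusted p = 0.102 and 0.116), while their summed counts did (0.65, adjusted p = 0.0332). Because a translation block need not lower its own transcript, these values do not measure how far the proteins were reduced.

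Across all genes, 1246 were called higher in morphants and 1453 lower (adjusted p no greater than 0.05), which is 5.75% and 6.71% of the tested genes and 12.5% in either direction. Most changes were small. The median log2 fold change was 0.59 among the genes called higher and -0.48 among those called lower, and 0.01 over all tested genes. A change of at least 2-fold was found for 363 higher and 293 lower genes, and one of at least 8-fold for 35 and 48. Of the 2699 called genes, 2688 moved the same way in all 3 pairs, which a call from the blocked fit makes likely by itself. The share of all tested genes that did so was not counted. Of the called genes, 1380 (51.1%) did not overlap between the groups, beside 10.2% of all tested genes. The calls rest on the pairing. Without the replicate block edgeR called 0 genes, with 1238 at an unadjusted p under 0.05, and leaving out the pair of replicate 1, 2 or 3 gave 709, 735 or 1183 higher and 794, 1058 or 1428 lower genes.

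**Figure D1:**
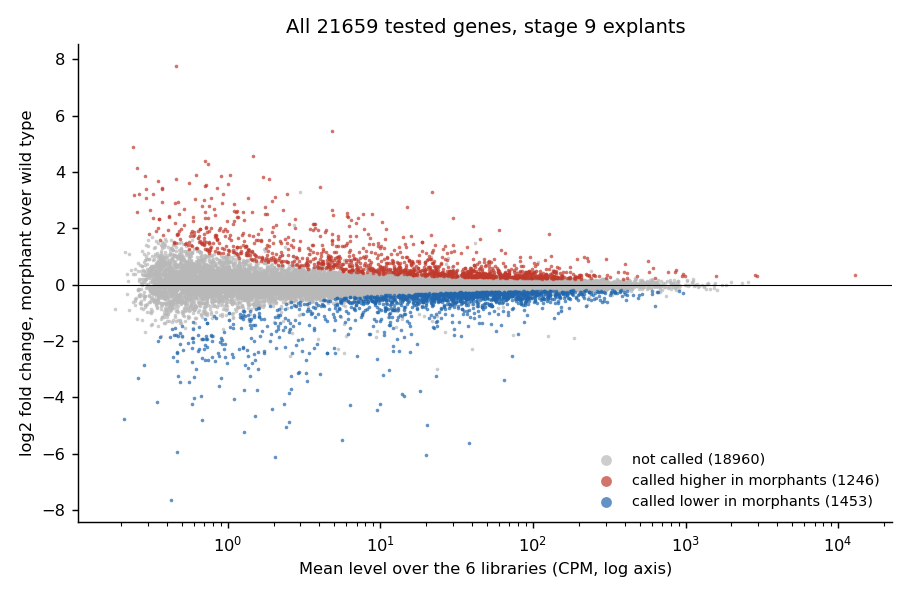
Mean level of each tested gene over the 6 libraries (CPM, log axis) against its log2 fold change, morphant over wild type, with 1246 genes called higher in red, 1453 called lower in blue and the others in grey. Called genes of high level sit close to 0, and changes of 2-fold or more belong mainly to genes of low level.

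The direction of the calls depended on the level of the gene. Below a mean of 1 CPM, 4.96% of tested genes were called higher and 2.87% lower, and all 213 called genes there differed by at least 2-fold. Between 20 and 100 CPM the shares were 5.82% higher and 9.2% lower, and 5.49% of the called genes differed by at least 2-fold. At 100 CPM or more, 147 genes rose and 195 fell, with 3 of them past 2-fold. Small changes are harder to call at low counts, so the sizes of called changes cannot be compared between levels. The frog is an allotetraploid with L and S gene copies, and these were called at similar shares, 5.39% higher and 7.12% lower for L and 5.84% and 7.22% for S.

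The genes were then read through 75 lists of functions and families, which covered 6211 tested genes, of which 868 were called. In 63 lists the median log2 fold change lay within 0.1 of 0, so that few families moved as a whole. In most lists a small number of members rose or fell among a majority that were not called. A list's counts are given below of its tested members. A gene with enough counts in 1 group alone can pass the filter through that group and is then likely to be called. Such genes stay in the counts of their lists, for example sox18.L and foxj1.2.S, which were low in every wild-type library. Each share is to be read beside 5.75% called higher and 6.71% called lower over all genes.

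**Figure D2:**
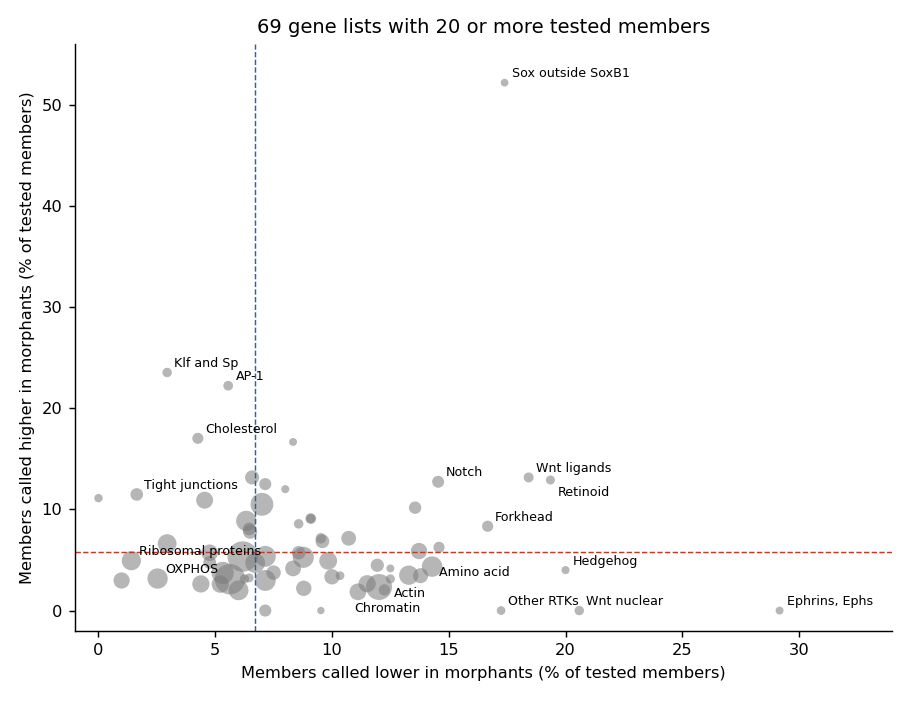
Share of tested members called lower (horizontal axis, %) and higher (vertical axis, %) in morphants for each list with at least 20 tested members, with point area proportional to the number of tested members and dashed lines at the shares over all genes, 6.71% and 5.75%. Sox factors outside SoxB1 stand apart at the top at 52.2% higher, Klf and Sp, AP-1 and cholesterol genes lie above the horizontal line, and ephrins and Eph receptors lie farthest to the right.

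The family with the largest share of changed members was Sox itself. Outside SoxB1, 12 of 23 tested genes were higher and 4 lower, with a median log2 fold change of 0.80, or 0.11 with L and S counts summed. The 12 were both copies of 6 genes, sox4, sox7, sox8, sox17a, sox17b.1 and sox18, and the 4 were both copies of sox11 and sox21. Leaving out any 1 pair left between 10 and 11 higher and between 4 and 5 lower. The 7 uncalled members, 4 of which are named here after their values were seen, included sox13.S, sox15.L and sox6.S, with log2 fold changes of 0.11, -0.14 and -0.07, and sox9.S, with -1.82 (adjusted p = 0.14).

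sox7, sox17 and sox18 form the SoxF group, known in vertebrates for roles in endoderm and blood vessels. sox7.S was at 2.33, 1.33 and 0.384 CPM in wild type and at 13.1, 9.19 and 2.64 CPM in morphants, and each morphant library was above all wild-type libraries (log2 fold change 2.65, SE 0.18, adjusted p = 1.67e-07; 1.62 for L and S together). sox17b.1.S, a determinant of endoderm, rose from 1.26, 0.806 and 2.50 CPM to 8.75, 5.87 and 10.1 CPM (log2 fold change 2.47, adjusted p = 8.25e-07; 1.43 for L and S together). The L copy, sox17b.1.L, rose from 19.5, 10.7 and 15.1 CPM to 44.4, 26.5 and 38.5 CPM. For both copies the groups did not overlap. sox18.L was near the floor in wild type, at 0.0789, 0.105 and 0.192 CPM, and reached 2.22, 1.91 and 1.75 CPM in morphants, which gave fitted log2 fold changes of 3.88 for sox18.L, 1.59 for sox18.S and 2.24 for L and S together.

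**Figure D3:**
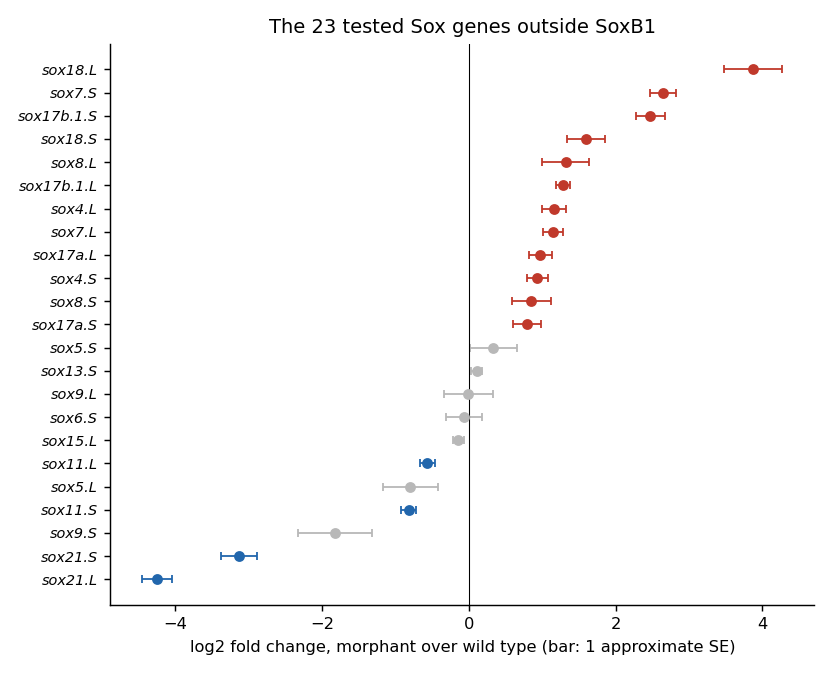
Log2 fold change, morphant over wild type, of the 23 tested Sox genes outside SoxB1, with bars of 1 approximate standard error, red where called higher, blue where called lower and grey where not called. The 12 red points lie between 0.80 and 3.88 and the 4 blue points between -4.25 and -0.56.

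Some markers of vegetal tissue were also called higher. Of the 24 tested vegetal and endoderm markers 8 were higher and 0 lower, and the rest were not called. Germ plasm markers, RNA held at the vegetal cortex of the egg, did not share this direction, with 2 of 17 higher and 2 lower. All 53 listed vegetal and endoderm markers, tested or not, summed to between 200.2 and 382 CPM in wild-type libraries and between 367 and 526 CPM in morphant libraries. The 8 higher vegetal and endoderm markers were both copies of sox17a, sox17b.1 and vegt, with bix1.3.L and wnt11b.L. The SoxF genes are thus themselves part of this list, and pdx1.L and darmin.L had no count in any library. vegt.S, a maternal T-box factor of the vegetal pole, stood at 112, 74.9 and 46.3 CPM in wild type and at 156, 120 and 103 CPM in morphants, with overlapping groups, and was not called without the pair of replicate 2 (adjusted p = 0.0861). wnt11b.L, a Wnt ligand enriched vegetally, rose from 40.0, 18.4 and 7.94 CPM to 81.5, 49.7 and 24.1 CPM (log2 fold change 1.33, adjusted p = 2.17e-06). For both transcripts the groups overlapped while each pair moved up, as the rule for naming genes required. The part of vegetal tissue in these results was not tested. Among 10 tested blood and vessel markers, the 4 that rose were the copies of sox7 and sox18, and hba1.L, hba1.S, hbe1.L and cdh5.S had no count.

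sox21, a SoxB2 repressor whose protein binds the same motif as SoxB1, fell more than any other Sox gene. sox21.L went from 27.0, 16.5 and 13.2 CPM to 0.842, 1.17 and 0.858 CPM (log2 fold change -4.25, SE 0.20, adjusted p = 6.18e-08), and sox21.S from 6.87, 3.93 and 4.90 CPM to 0.606, 0.676 and 0.462 CPM (log2 fold change -3.13, or -3.93 for L and S together). Wild-type and morphant libraries were far apart for both. The SoxC genes split. Both copies of sox11 (sox11.L and sox11.S), a factor of the early neural program, fell by 0.56 (L) and 0.82 (S) on the log2 scale, and both copies of sox4 (sox4.L and sox4.S) rose, by 1.16 (L) and 0.93 (S).

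The 15 genes with the largest falls, taken among named genes of at least 5 CPM in wild type, included metabolic, signalling and cytoskeletal genes. gatm.L, which makes the precursor of creatine, was at 44.6, 56.8 and 15.7 CPM in wild type and at 0.875, 2.09 and 0.726 CPM in morphants (log2 fold change -4.97, SE 0.18, adjusted p = 6.15e-09). admp.S, a BMP family ligand of the dorsal organizer, fell from 12.9, 20.8 and 2.56 CPM to 0.673, 1.01 and 0.165 CPM (log2 fold change -4.27, SE 0.19, adjusted p = 2.95e-09). The L copy, admp.L, fell by 2.69 on the log2 scale, and L and S together by 3.55. Neither of these genes overlapped between the groups. nedd9.S, a scaffold protein of focal adhesions, had the largest fall of the 15, from 69.5, 69.1 and 86.0 CPM to 1.75, 2.15 and 0.594 CPM (log2 fold change -5.63, SE 0.43, adjusted p = 0.0118). The groups were far apart, but without the pair of replicate 1 nedd9.S was not called (adjusted p = 0.291), nor was nedd9.L (0.304), and L and S together gave -4.99.

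Further falls of this kind came from tubulin, neural and epithelial genes. tuba1cl.2.S, an alpha tubulin, went from 16.6, 17.9 and 26.4 CPM to 3.1, 2.43 and 1.78 CPM (log2 fold change -3.04, adjusted p = 0.000493). prph.L and prph.S, the neuronal intermediate filament peripherin, fell by 3.13 and 5.06 on the log2 scale, or by 3.71 with L and S summed. Its level followed the replicate, at 4.1, 12.1 and 1.5 CPM for prph.L in wild type, but each morphant library lay below all of these, at 0.404, 1.17 and 0.330 CPM. tnfsf10l.L, a ligand of the tumour necrosis factor superfamily, fell from 7.46, 6.94 and 3.87 CPM to 0.640, 0.922 and 0.165 CPM. stx19.S, a syntaxin, fell from 24.4, 27.0 and 26.4 CPM to 1.68, 2.80 and 0.957 CPM, but stx19.L held most counts of the pair, at between 157 and 405 CPM in wild type, and the summed counts gave no call (adjusted p = 0.478). lpar6.S, a receptor for lysophosphatidic acid, fell by 3.78 on the log2 scale (adjusted p = 0.0306) and lost the call without the pair of replicate 1 (0.0899) or 3 (0.0957), with a fall of 4.44 without that of replicate 2 and of 0.94 for L and S together.

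The 15 largest rises under the same rule lay between 1.96 and 3.46 on the log2 scale, and the 15 largest falls between -5.63 and -2.54. Besides sox7.S and sox17b.1.S, already given, atp6v1c2.L, a subunit of the proton pump V-ATPase, went from 1.5, 0.175 and 0.512 CPM to 9.73, 4.92 and 7.46 CPM (log2 fold change 3.46, SE 0.29, adjusted p = 1.94e-05; 4.17 without the pair of replicate 1). Among the other tested V-ATPase subunits 2 rose and 3 fell, none by more than 0.55 on the log2 scale. c3ar1.L, the receptor for complement fragment C3a, rose from 2.49, 3.02 and 1.63 CPM to 20.5, 20.7 and 4.26 CPM (log2 fold change 2.51, adjusted p = 0.00329), with a rise in replicate 3 well below that in the others. The beta subunit gene of the sodium pump, atp1b2.L, rose from 4.46, 2.70 and 4.0 CPM to 12.9, 9.80 and 15.8 CPM (log2 fold change 1.79, SE 0.14, adjusted p = 6.60e-07), and the row listed as atp1b2 without a subgenome rose by 2.02 on the log2 scale. aplnr.L, the apelin receptor, went from 4.89, 6.66 and 3.94 CPM to 22.1, 18.3 and 9.11 CPM (log2 fold change 1.62, adjusted p = 5.05e-05), and aplnr.S had 1.97 but was not called without the pair of replicate 2 (adjusted p = 0.108). creb3l4.S, a membrane-bound transcription factor, cd274.L, the ligand of the immune receptor PD-1, and fhl3.L, a LIM-domain protein, rose by 2.16, 2.08 and 2.40 on the log2 scale. For fhl3 the S copy (fhl3.S) did not pass the test, at -0.33, and L and S together gave 1.60.

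**Figure D4:**
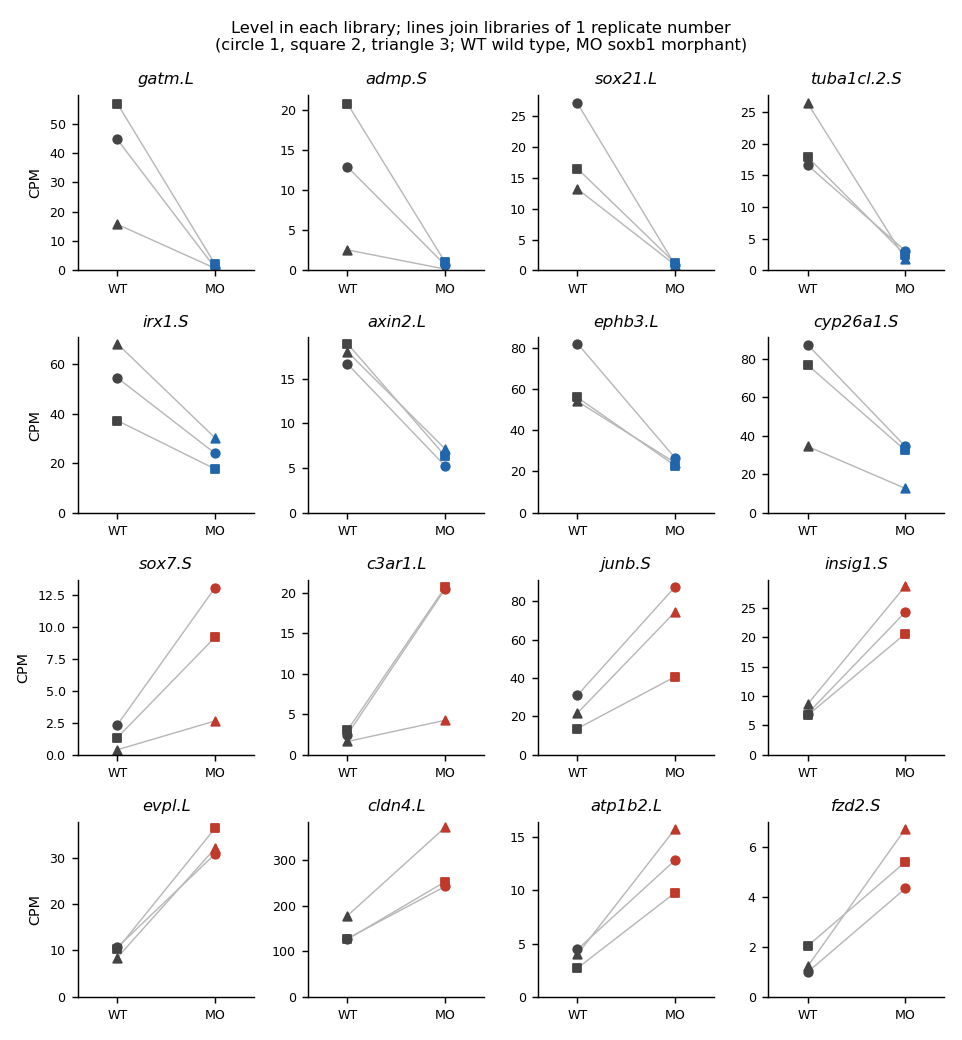
Level in CPM of 8 genes that fell and 8 that rose in each wild-type (WT, dark markers) and morphant (MO, blue for falls and red for rises) library, on linear axes that start at 0, with lines joining libraries of the same replicate number. In all 16 panels the 3 lines run the same way, which the rule for naming genes required. For sox7.S and admp.S replicate 3 starts far below the other replicates.

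Beyond Sox, transcription factor families moved in part. Of 12 tested T-box genes 4 rose and 3 fell, and without the pair of replicate 2 these were 2 and 0. tbxt.S, the mesoderm factor Brachyury, rose from 0.553, 0.666 and 0.448 CPM to 2.19, 1.63 and 1.55 CPM (log2 fold change 1.67, adjusted p = 0.00129). eomes.L and eomes.S, a mesendoderm factor, fell by 1.37 and 1.95 on the log2 scale but were not called without the pair of replicate 2 (adjusted p = 0.0653 and 0.166), nor was eomes.S without that of replicate 1 (0.224). The mesoderm factor myod1.L rose from 0.513, 0.947 and 1.02 CPM to 2.12, 2.80 and 4.32 CPM, still a low level. For tbxt.S and myod1.L the groups did not overlap. The 14 tested mesoderm markers together had 4 higher and 3 lower members, and msgn1.S, myf5.S and nkx2-5.L had no count.

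Among 48 tested forkhead genes 4 were higher and 8 lower, or between 2 and 5 and between 7 and 9 with a pair left out. Both copies of foxd4l1.1, a factor of the early neural plate, fell. foxd4l1.1.L stood at 59.9, 28.6 and 52.1 CPM in wild type and at 27.3, 14.6 and 13.7 CPM in morphants (log2 fold change -1.34, adjusted p = 0.00658), and foxd4l1.1.S fell by 2.16 on the log2 scale (1.55 for L and S together). foxi4.1.L and foxi4.1.S, of an ectodermal family, fell by 2.21 and 2.03. The 4 that rose were foxj1.S and foxj1.L, of the master regulator of motile cilia, the related foxj1.2.S, and foxi1.L, an ectodermal factor at 0.68 that is named after its value was seen. foxj1.2.S went from 0.197, 0.280 and 0.256 CPM to 1.31, 0.830 and 2.08 CPM (log2 fold change 2.46, adjusted p = 0.000586; 1.08 for L and S together), a low level with no overlap. foxj1.L had a log2 fold change of 0.70 and was not called without the pair of replicate 2 (adjusted p = 0.125). foxj1.S went from 4.58, 4.35 and 1.06 CPM to 15.5, 15.7 and 5.97 CPM (log2 fold change 1.96, SE 0.16, adjusted p = 7.76e-07; 1.27 for L and S together), above all wild-type libraries in each case. Cilia genes as a list were called in both directions, with 9 of 171 higher and 15 lower (between 3 and 11 and between 9 and 15 with a pair left out). The 9 include foxj1.S, foxj1.L and foxj1.2.S, which are on both lists. rfx4.L, arl13a.L and ift80.L, a ciliary transcription factor, small GTPase and transport protein, fell by 2.69, 1.43 and 0.85 on the log2 scale, and rfx4.L had a log2 fold change of -3.40 without the pair of replicate 2.

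Of 34 Krüppel-like and Sp genes tested, with klf17 left out, 8 were higher and 1 lower, or between 4 and 8 and between 0 and 1 when a pair was left out. sp7.L, known in vertebrates for bone formation, rose from 3.08, 3.12 and 2.56 CPM to 8.21, 10.2 and 10.9 CPM (log2 fold change 1.74, adjusted p = 3.06e-06), and sp7.S by 1.17 on the log2 scale. Among 56 basic helix-loop-helix genes 7 rose and 4 fell, or between 4 and 7 and between 3 and 4 with a pair left out. mxi1.L, which opposes Myc, rose from 18.8, 15.7 and 13.8 CPM to 53.2, 46.8 and 31.2 CPM with no overlap (log2 fold change 1.42, SE 0.10, adjusted p = 2.09e-07). The neural factors neurog2.L and olig3.S fell by 1.99 and 2.1 from levels of at most 2.0 CPM, and neurog2.L was not called without the pair of replicate 2 (adjusted p = 0.13), fell by 2.67 without that of replicate 3 and by 0.88 with L and S summed. Of 91 listed Hox, ParaHox and cofactor genes 14 passed the filter, of which 1 rose and 3 fell. The cofactor meis3.S, which posteriorizes neural tissue, fell from 13.7, 15.4 and 8.39 CPM to 4.48, 9.86 and 2.81 CPM (log2 fold change -1.23, adjusted p = 0.00172). irx1.S, an Iroquois factor of the neural plate, fell from 54.4, 37.2 and 68.2 CPM to 23.9, 17.6 and 30.1 CPM (log2 fold change -1.15, SE 0.08, adjusted p = 3.06e-07). None of the 6 tested GATA genes was called.

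Signalling lists differed in direction. In the Wnt pathway, 5 ligand, receptor or inhibitor genes of 38 rose and 7 fell, or between 3 and 5 and between 4 and 8 with a pair left out. fzd2.S, a Frizzled receptor, rose from 0.987, 2.03 and 1.22 CPM to 4.34, 5.41 and 6.73 CPM (log2 fold change 1.97, SE 0.22, adjusted p = 2.80e-05). fzd4.S, another Frizzled, fell from 18.1, 27.3 and 15.3 CPM to 3.23, 6.98 and 5.84 CPM (log2 fold change -1.92, SE 0.18, adjusted p = 6.73e-05). The groups were apart for both receptors. Of secreted inhibitors, sfrp2.S fell from 152, 124 and 87.7 CPM to 52.4, 45.1 and 17 CPM (log2 fold change -1.77, adjusted p = 0.0127; -1.14 for L and S together) and dkk1.L by 1.49 on the log2 scale.

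Downstream of the receptors, 0 of 34 tested Wnt nuclear and feedback genes were higher and 7 lower. The count of lower genes was 5 with each of the pairs left out, though not always of the same genes. axin2.L, a feedback inhibitor and common readout of the pathway, fell from 16.7, 18.9 and 18 CPM to 5.22, 6.33 and 7.13 CPM (log2 fold change -1.53, SE 0.12, adjusted p = 6.60e-07). The row of axin2.S with more counts (gene10843) fell by 0.56, and L and S together by 0.83. Of the repressor tcf7l1, tcf7l1.L fell by 0.37, a call lost without the pair of replicate 1 (adjusted p = 0.184) or 3 (0.102), and tcf7l1.S by 0.41. tcf7l1.S was at 41.1, 51.3 and 51.6 CPM in wild type and at 30.8, 44.1 and 33.9 CPM in morphants, with overlapping groups.

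The 24 tested ephrins and Eph receptors, which signal between touching cells and sort them at tissue boundaries, had 0 higher and 7 lower members, and 7 lower members whichever pair was left out. ephb3.L fell from 82.2, 56 and 54.1 CPM to 26.5, 22.8 and 24.2 CPM (log2 fold change -1.37, SE 0.10, adjusted p = 3.23e-07), and ephb3.S by 0.74 on the log2 scale. The ligand efnb2.S fell from 18.2, 18.3 and 12.7 CPM to 3.64, 1.38 and 3.04 CPM (log2 fold change -2.63, SE 0.32, adjusted p = 0.00675). Wild-type libraries were above morphant libraries throughout for ephb3.L and efnb2.S, while the groups of ephb3.S overlapped. The receptors ephb4.S, epha2.L and epha4.L, named after their values were seen, fell by 0.49, 0.52 and 0.72.

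For BMP signals 3 of 48 tested genes rose and 7 fell, or between 1 and 2 and between 5 and 7 with a pair left out. Beside admp, the receptor bmpr1a.L fell from 26.4, 27.7 and 27.4 CPM to 14.6, 19.3 and 14.8 CPM (log2 fold change -0.75, SE 0.10, adjusted p = 0.000153), and L and S together by 0.44. The antagonist chrd.1.L, an organizer gene, fell from 6.59, 1.93 and 0.704 CPM to 1.51, 0.338 and 0.363 CPM (log2 fold change -1.98, adjusted p = 0.000311; with L and S summed, adjusted p = 0.287). The groups of chrd.1.L overlapped, and each pair moved down, as the rule for naming genes required. The BMP target genes id3.L and id3.S rose by 0.49 and 0.36, and neither was called without the pair of replicate 2 (adjusted p = 0.107 and 0.117), nor was id3.S without that of replicate 3 (0.0572). Of 24 tested Nodal and activin genes 4 rose and 2 fell, and without the pair of replicate 2 these were 0 and 1. dand5.S, a Nodal antagonist, fell from 384, 429 and 375 CPM to 342, 333 and 287 CPM (log2 fold change -0.30, adjusted p = 0.00572).

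FGF genes split by receptor, with 4 of 44 higher and 4 lower, or between 2 and 3 and between 3 and 6 with a pair left out. fgfr2.S rose from 1.26, 1.61 and 1.09 CPM to 8.04, 5.50 and 4.36 CPM (log2 fold change 2.14, SE 0.21, adjusted p = 5.92e-06), and 1.05 was found for L and S together. fgfr4.S fell from 64.1, 94.4 and 61.3 CPM to 35.7, 49.1 and 30.6 CPM (log2 fold change -0.93, SE 0.08, adjusted p = 1.42e-06), and fgfr4.L by 0.67 on the log2 scale. Neither receptor overlapped between the groups. The feedback phosphatase dusp5.S fell by 0.88 with overlapping groups, or by 0.32 with L and S summed. Of 29 tested genes in the list of other receptor tyrosine kinases 0 rose and 5 fell, or 1 without the pair of replicate 1. Not all of the 5 are receptors. Both copies of the ligand gene pdgfa, named after their values were seen, are among them, with log2 fold changes of -1.52 (L) and -1.21 (S). The receptor tyro3.L was at 78.1, 81.9 and 77.2 CPM in wild type and at 57.4, 67.6 and 47.3 CPM in morphants (log2 fold change -0.48, adjusted p = 0.00177).

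In the Notch pathway 7 of 55 tested genes rose and 8 fell, or between 5 and 8 and between 5 and 12 with a pair left out, and the median log2 fold change was -0.16. dll1.L, a Notch ligand, rose from 0.987, 1.23 and 2.43 CPM to 4.24, 3.2 and 5.87 CPM (log2 fold change 1.54, adjusted p = 0.00015; with L and S summed, 0.107). Target genes of the Hes family went both ways. hes3.S fell from 1.58, 1.16 and 2.50 CPM to 0.303, 0.154 and 0.297 CPM (log2 fold change -2.77, adjusted p = 7.27e-05), and hes5.8.L rose by 0.64 on the log2 scale. Of 31 retinoid genes 4 rose and 6 fell. cyp26a1.S, which degrades retinoic acid, fell from 87.4, 76.9 and 34.5 CPM to 34.4, 32.4 and 12.6 CPM (log2 fold change -1.34, SE 0.08, adjusted p = 7.37e-08). dhrs3.S and rdh10.L, which interconvert retinol and retinal, fell by 1.25 and 0.79, or by 1.11 and 0.24 with L and S summed. crabp2.L, a carrier of retinoic acid, rose from 0.276, 0.0701 and 0.384 CPM to 4.78, 3.63 and 2.08 CPM (log2 fold change 3.75, adjusted p = 0.0001; 4.61 without the pair of replicate 3 and 2.86 for L and S together). Among 25 Hedgehog genes 1 rose and 5 fell, or 1 and between 1 and 7 when a pair was left out.

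AP-1 and immediate early genes, which respond within minutes to growth factors and stress, had 8 of 36 tested members higher and 2 lower, with a median log2 fold change of 0.22 and between 5 and 10 higher members when a pair was left out. junb.S rose from 31.0, 13.6 and 21.7 CPM to 87.5, 40.6 and 74.5 CPM (log2 fold change 1.62, SE 0.09, adjusted p = 2.14e-08). junb.L, with more counts, did not pass (adjusted p = 0.35), nor did the sum (0.179). atf3.S, a stress-induced factor, rose from 2.88, 1.37 and 1.66 CPM to 5.89, 3.32 and 5.08 CPM, and fosl1.L by 1.33 on the log2 scale. The groups of fosl1.L overlapped, at 21.8, 1.51 and 1.15 CPM in wild type and 47.1, 4.64 and 3.43 CPM in morphants. The 2 that fell were the copies of the phosphatase dusp1, which switches off MAP kinases. dusp1.S went from 121, 84.0 and 169 CPM to 49.8, 38.7 and 58.8 CPM (log2 fold change -1.31, SE 0.08, adjusted p = 1.05e-07) and dusp1.L fell by 0.89. zfp36.L, an immediate early protein that promotes mRNA decay, is counted in the mRNA decay list given below and not among these 36. It rose from 0.632, 0.245 and 0.512 CPM to 3.3, 2.06 and 3.86 CPM (log2 fold change 2.74, adjusted p = 7.38e-06; 1.80 for L and S together).

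Of 158 G protein-coupled receptor and G protein genes 14 rose and 10 fell, or between 7 and 10 and between 8 and 11 with a pair left out. Besides aplnr and lpar6, the sphingosine phosphate receptor s1pr5.L fell from 16.7, 17.6 and 40.7 CPM to 5.05, 6.82 and 9.31 CPM (log2 fold change -1.75, SE 0.14, adjusted p = 2.17e-06) and s1pr5.S by 1.23. In the Hippo pathway 1 of 32 rose and 4 fell. amotl2.L and amotl2.S, angiomotin-like genes and targets of YAP, fell by 1.60 and 1.83, and amot.L, of the same family, rose from 14, 13.5 and 21 CPM to 21, 26.6 and 35.8 CPM (log2 fold change 0.78, adjusted p = 0.000103). For amot, L and S together gave 0.44. Innate immune and interferon genes had 10 of 76 higher and 5 lower (between 7 and 8 and between 2 and 5 with a pair left out), with c3ar1.L the largest rise of those with at least 1 CPM. The chemokine cxcl12.L fell from 24.8, 21.6 and 32.3 CPM to 16.7, 14 and 11.9 CPM (log2 fold change -0.88, adjusted p = 0.00965).

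Called keratin and tight junction genes were mostly higher in morphants. Of 16 tested keratins 5 were higher and 1 lower, with a median log2 fold change of 0.27. krt7.S rose from 8.13, 17 and 22.5 CPM to 45.7, 59.4 and 92.0 CPM (log2 fold change 2.09, SE 0.12, adjusted p = 2.09e-07), while krt7.L, with more counts, had 0.47 and did not pass (adjusted p = 0.132), and the sum gave 0.85. krt70.S rose from 587, 300 and 368 CPM to 862, 585 and 730 CPM (log2 fold change 0.83, adjusted p = 3.25e-05) with overlap of 1 wild-type and 1 morphant library. Of 61 tight junction genes 7 rose and 1 fell, or between 4 and 7 and 1 with a pair left out. cldn4.L, a sealing claudin, rose from 128, 126 and 178 CPM to 242, 253 and 372 CPM (log2 fold change 1.0, SE 0.06, adjusted p = 9.80e-08), and cldn4.S by 0.96, though without the pair of replicate 2 it missed the threshold (adjusted p = 0.0555). evpl.L, the plaque protein envoplakin, rose from 10.7, 10.3 and 8.45 CPM to 30.8, 36.3 and 32 CPM with no overlap (log2 fold change 1.76, SE 0.11, adjusted p = 6.69e-08). Not all adhesion genes followed. cdh1.S, E-cadherin, fell from 22.5, 19.0 and 17.2 CPM to 9.12, 9.59 and 9.77 CPM (log2 fold change -1.03, SE 0.12, adjusted p = 2.97e-05), and cldn6.2.L, another claudin, from 368, 355 and 286 CPM to 271, 270 and 196 CPM (with L and S summed, adjusted p = 0.0755).

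Called cytoskeleton and matrix genes were mostly lower. Of 143 actin and focal adhesion genes 5 rose and 19 fell, and of 161 tubulin, kinesin and dynein genes 7 rose and 23 fell, with 5 and 11 lower without the pair of replicate 1 and between 3 and 10 tubulin, kinesin and dynein genes higher with a pair left out. cnn2.S, the actin-binding protein calponin, fell from 33.7, 35.6 and 28.9 CPM to 11.9, 12.1 and 10.2 CPM (log2 fold change -1.52, SE 0.10, adjusted p = 8.36e-08), and cnn2.L by 1.01. pls3.L, an actin-bundling plastin, went the other way, from 84.3, 99.8 and 80.4 CPM to 192, 174 and 163 CPM (log2 fold change 1.0, SE 0.08, adjusted p = 7.76e-07). mapre3.L and clip1.S, which bind microtubule ends, fell by 0.80 and 0.60. Among 90 matrix and integrin genes 3 rose and 9 fell, or between 0 and 2 and between 8 and 11 with a pair left out, and the syndecan copies sdc4.L and sdc4.S fell by 1.60 and 0.68 (0.98 together). The hyaluronan synthase has2.L fell from 5.57, 14.7 and 5.15 CPM to 0.640, 2.58 and 1.49 CPM (log2 fold change -2.42, adjusted p = 4.35e-06).

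Metabolic lists held single large changes. Of 87 amino acid, creatine and one-carbon genes 3 rose and 12 fell. gatm.S fell by 1.72 on the log2 scale, a call lost without the pair of replicate 2 (adjusted p = 0.193) or 3 (0.0541), and L and S together gave -4.74. Other falls were those of arg1.L, arginase, from 12.9, 19.7 and 15.8 CPM to 2.66, 9.53 and 3.17 CPM (log2 fold change -1.80, adjusted p = 0.0123) and srm.L, spermidine synthase, from 36.6, 36.0 and 34.9 CPM to 19.5, 18.1 and 15.4 CPM (log2 fold change -1.03, SE 0.09, adjusted p = 3.09e-06). Another arginase gene, arg2.S, rose by 0.72. sat1.L, which acetylates polyamines, fell from 171, 178 and 238 CPM to 116, 95.4 and 123 CPM. Its log2 fold change was -0.80, or -0.29 for L and S together. Without a pair the list gave between 1 and 2 rises and between 8 and 12 falls. Of 47 cholesterol genes 8 rose and 2 fell, or between 3 and 7 and between 1 and 3. insig1.S, the sterol-sensing brake on synthesis, rose from 7.03, 6.70 and 8.61 CPM to 24.3, 20.6 and 28.8 CPM (log2 fold change 1.72, SE 0.11, adjusted p = 7.78e-08; 1.09 for L and S together). dhcr7.S, of the last step of synthesis, rose by 0.72.

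Glucose genes were mixed, with 5 of 73 higher and 7 lower (between 4 and 7 lower with a pair left out). The transporter slc2a1.S rose from 4.18, 2.38 and 3.2 CPM to 9.16, 6.91 and 9.83 CPM (log2 fold change 1.42, SE 0.15, adjusted p = 1.79e-05), and hexokinase hk2.L fell from 54.2, 60.4 and 61.9 CPM to 35.9, 38.2 and 36.3 CPM (log2 fold change -0.67, adjusted p = 4.29e-05). pdk4.S, which restrains pyruvate dehydrogenase, fell by 0.76 and pdk4.L by 1.27. Of 356 solute carriers 19 rose and 22 fell, or between 11 and 17 and between 10 and 16 with a pair left out.

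Genes of the core machinery of the cell were called at shares near or below those over all genes in some lists and mostly lower in others. Of 158 oxidative phosphorylation genes 5 rose and 4 fell, of 142 cytosolic ribosomal protein genes 7 and 2, and of 101 mitochondrial ribosomal protein genes 3 and 1, which is 5.70%, 6.34% and 3.96% called in either direction beside 12.5% over all genes. Lower calls in these 3 lists numbered 9, 8 and 5 without the pair of replicate 3, and those of oxidative phosphorylation 1 without that of replicate 1 or 2, where mitochondrial ribosomal proteins had 0 without that of replicate 2. Higher ribosomal protein calls numbered 4 without the pair of replicate 1 or 3. Among them both copies of rpl4 rose. rpl4.L went from 156, 194 and 142 CPM to 320, 322 and 236 CPM (log2 fold change 0.83, SE 0.07, adjusted p = 2.20e-06), and rpl4.S by 0.84. Lower calls prevailed among histone modifiers and chromatin remodelers, with 6 of 258 higher and 31 lower (15 lower without the pair of replicate 1), among translation factors, with 3 of 113 higher and 13 lower (between 0 and 4 and between 9 and 16 with a pair left out), among deubiquitinases, with 2 of 108 higher and 12 lower (6 lower without the pair of replicate 2), and among ribosome biogenesis genes, with 6 of 102 higher and 14 lower (6 lower without the pair of replicate 1). The median log2 fold changes of these lists were near 0, at -0.04, 0.02, 0.01 and -0.01 in that order. Over all genes with a mean of 20 to 100 CPM, 9.2% were called lower, and the levels of these lists were not compared.

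Within these lists most changes were under 2-fold. kdm2b.S, a histone demethylase that binds CpG islands, fell from 57.4, 44.9 and 39.4 CPM to 14.4, 15.9 and 10.7 CPM (log2 fold change -1.79, SE 0.11, adjusted p = 6.87e-08; -0.81 for L and S together). The eIF4E transport factor eif4enif1, which represses maternal mRNA, fell in both copies, eif4enif1.S from 261, 304 and 273 CPM to 151, 199 and 153 CPM (log2 fold change -0.75, SE 0.07, adjusted p = 2.41e-06). utp11.L, of the small-subunit processome, fell from 48.8, 101 and 82.2 CPM to 20.7, 36.3 and 31.0 CPM (log2 fold change -1.38, SE 0.08, adjusted p = 6.18e-08). eif4b.L, an initiation factor, fell by 0.83, or by 0.46 with L and S summed.

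Cell cycle and replication genes moved in both directions. Of 200 cyclin, Cdk and mitotic genes 21 rose and 14 fell, or between 12 and 21 and between 9 and 18 with a pair left out, and the median log2 fold change was 0.03. wee1.L, the kinase that holds back Cdk1, rose from 12.2, 9.96 and 10.7 CPM to 24.2, 13.8 and 22 CPM (log2 fold change 0.84, SE 0.12, adjusted p = 0.000309), and ndc80.S, which couples kinetochores to microtubules, fell from 109, 107 and 155 CPM to 46.1, 51.3 and 78.6 CPM (log2 fold change -1.09, SE 0.07, adjusted p = 1.99e-07). The groups were apart for both. Of 84 replication genes 6 rose and 9 fell, or 1 and 1 without the pair of replicate 1. rrm1.S, the large subunit of ribonucleotide reductase, fell from 170, 284 and 111 CPM to 65.3, 155 and 43.3 CPM (log2 fold change -1.20, SE 0.10, adjusted p = 1.95e-05; -0.44 for L and S together). pcna.L, the sliding clamp, rose by 0.41. Among 110 mRNA decay genes 12 rose and 5 fell, or between 4 and 16 rose when a pair was left out. The deadenylase parn.L rose from 80.7, 110 and 63.3 CPM to 175, 178 and 111 CPM (log2 fold change 0.87, SE 0.08, adjusted p = 7.18e-06), and L and S together by 0.47.

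The L and S copies of a gene were compared as a further view of the same calls. Both copies were tested for 5324 genes. At least 1 copy was called in 1245 of these pairs and both in 239, of which 220 moved the same way and 19 opposite ways. Of the 119 copies that rose at least 2-fold and had a tested homeolog, the other copy was also called higher for 46, was called lower for 3 and was not called for 70. For the 132 copies that fell at least 2-fold, the other copy was called lower for 67, higher for 7 and not called for 58. The copies are alike in sequence and reads can be shared between them, which can raise the number of pairs that move the same way. The change of a single copy is therefore less certain than that of the sum. The sum is not given for every gene above, and its absence does not mean that it matched. Its log2 fold change was smaller in size for slc2a1.S (0.94), hk2.L (-0.43), pls3.L (0.69), dkk1.L (-1.06) and cyp26a1.S (-0.99). It was close to that of the copy for evpl.L (1.69) and ndc80.S (-1.05).

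**Figure D5:**
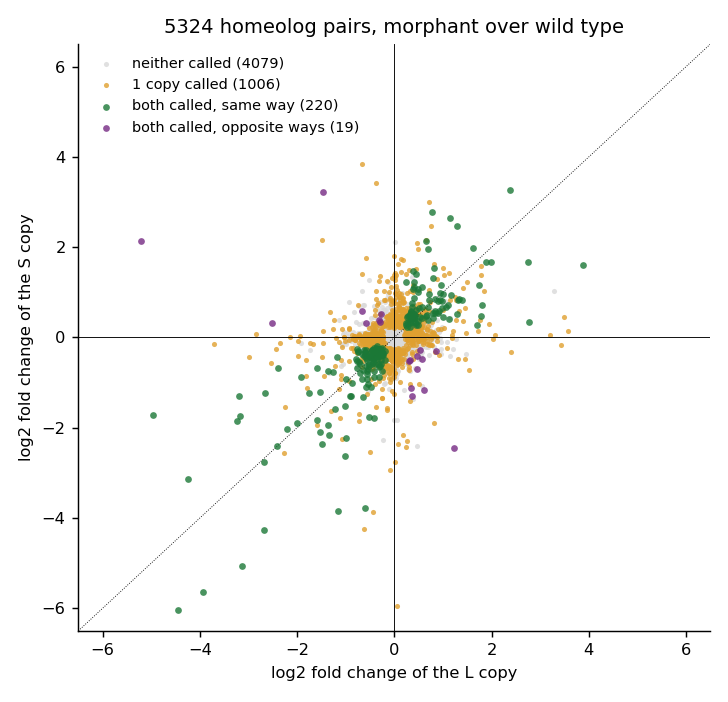
Log2 fold change, morphant over wild type, of the L copy (horizontal axis) and the S copy (vertical axis) of 5324 genes, with pairs in which both copies were called drawn in green (220, same direction) and purple (19, opposite directions). Most green points lie along the dotted line of equal change, and many orange points, with 1 copy called, lie near an axis.

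A few opposite pairs, named after their values were seen, show how far copies can part. prrt1.L rose from 1.34, 1.4 and 2.46 CPM to 2.19, 4.92 and 5.31 CPM (log2 fold change 1.23, adjusted p = 0.00151), and prrt1.S fell from 3.55, 2.45 and 1.54 CPM to 0.640, 0.461 and 0.264 CPM (log2 fold change -2.46, adjusted p = 2.69e-05), so that their sum gave 0.08 and no call. rasl11b.S, a small GTPase, fell by 1.12 on the log2 scale and rasl11b.L rose by 0.35, the latter not called without the pair of replicate 2 (adjusted p = 0.244).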

How the data were processed

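RNA was measured in 3 St9 wild type and 3 St9 soxb1 morphant libraries, made with a directional kit from animal pole explants. The authors trimmed reads with fastp, aligned them with STAR to the Xenopus laevis genome 9.2 and counted them per gene with HTSeq, and the deposited values are raw counts. Tool versions and the strand setting of the counting are not given in the sources used here, so antisense and overlapping genes and near-identical L and S copies can share reads. A table with fold changes and p-values of the authors' own comparison was not used, nor were 3 libraries of another stage, of which only gene identifiers were read. Of the 51061 rows 1 had no identifier, and 482 names stood in more than 1 row (2261 rows), which were kept apart.

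Counts were fitted in R 4.3.3 with the robust quasi-likelihood F test of edgeR 4.0.16, with TMM scaling, filterByExpr by group, a term for group and the replicate number as a block. The spread came from these 6 libraries only, p-values were adjusted by Benjamini-Hochberg over all tested genes, and a gene was called at an adjusted p of 0.05 or less. The SE is the absolute log2 fold change divided by the square root of F and is approximate. Deviations from the group means correlated at between 0.87 and 0.89 in same-numbered libraries, over the limit of 0.1 for pairing, and at between -0.49 and -0.38 in others. No pair of libraries of a group agreed within sampling noise. The fit was tested on simulated data. Depth lay between 25796466 and 31671342 counts.

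Alternatives were no replicate block, DESeq2 1.42.0 and voom of limma 3.58.1 (both with the block), RLE, upper-quartile or no scaling beyond library totals, at least 1 count in all or at least 10 in every library, L and S counts summed, each pair left out, and an adjusted p of 0.01. With a pair left out, 2 pairs of libraries remain.

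The 75 lists are patterns of gene symbols, so they miss genes without one. They and the members were chosen with earlier results of these data known, and patterns that matched unintended symbols were corrected with the files in view. Named genes are, per list, up to 4 called genes in each direction with the largest log2 fold change that moved the same way in 3 pairs and had at least 1 CPM in the higher group. Added were the 15 largest rises and falls over all genes at 5 CPM outside the neural plate border, neural crest, p53, pluripotency and SoxB1 genes, the SoxB1 transcripts, and tested homeologs. Genes outside this rule, among them sox4, sox8, sox17a, prrt1 and rasl11b, were chosen after their values were seen. Some genes and 1 list that this rule names are not reported here.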

Additional observations from a re-analysis of the deposited data

How the results depend on the processing

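Without the replicate block, edgeR called 0 genes higher and 0 lower (1238 had an unadjusted p under 0.05, and the lowest adjusted p was 0.0600), 0 SoxB1 transcripts and 0 homeolog pairs with both copies called the same way, in place of 1246, 1453, 4 and 220. The block lowered the common dispersion of edgeR from 0.147 to 0.00724. Leaving out a pair gave between 709 and 1183 higher genes, between 794 and 1428 lower genes, between 107 and 216 homeolog pairs and between 3 and 5 SoxB1 transcripts, and 1411, 1630 and 2013 of the 2699 calls were shared without replicates 1, 2 and 3. An adjusted p of 0.01 gave 672 higher and 836 lower genes. The other tests, scalings and filters stayed within 1.5 times of both counts, with between 866 (DESeq2) and 1602 (at least 1 count in all) higher and between 1121 and 1915 lower genes. Upper-quartile scaling gave 1356 higher and 1307 lower genes. Summing L and S counts turned prrt1.S to 0.084 and rasl11b.S to 0.088 on the log2 scale, since the other copy moved the opposite way. Among 146 rows of named genes, library totals kept the direction and the side of the threshold for 146 and DESeq2 for 145 (not gatm.S, adjusted p = 0.119), and leaving out replicate 1, 2 or 3 ended the call of 5, 11 and 5. Of 150 counts of members called per list and direction, 73, 59 and 13 fell by more than 1.5 times without replicate 1, 2 and 3. The causes were not tested. Depth limits genes near 3 counts, between 0.0947 and 0.116 CPM, where small changes were not detectable.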

Other observations

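Genes without a symbol were called in a different balance from genes with one. Of 2570 tested genes with neither a symbol nor a provisional one, 7.70% were called higher and 4.51% lower, against 5.57% and 7.21% of the 16962 with a symbol, and 47.8% of the called unnamed genes differed by at least 2-fold, against 19.9% of those with a symbol. These shares also differed with the level of a gene, and the levels of unnamed genes and genes with a symbol were not compared. Germ plasm markers, RNA that the vegetal cortex of the egg holds, were called in both directions, with 2 of 17 higher (ddx25.L and dnd1.L) and 2 lower (ddx4.S and velo1.L), and summed to between 508 and 546 CPM in wild type and between 468 and 510 CPM in morphants.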
